A study of Mus musculus with 20 samples.

Results

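Total RNA of macrophages labelled as HuR knockout was compared with that of control macrophages after hypoxia. It rests on 5 of the 20 libraries of the series, 3 knockout-labelled and 2 control, and on the 12646 of 52636 genes that reached 1 TPM in at least 2 of these 5 libraries. Values are TPM (transcripts scaled to a total of 1000000 per library). They carry no read numbers, so depth cannot be given and only the spread between replicates measures precision. The libraries were chosen by their labels, not by measured values.

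The cells were macrophages grown for 6 days from mouse fetal liver cells in medium conditioned by L cells, a fibroblast line that secretes the macrophage growth factor CSF1. The labels give the embryonic day as both 14.4 and 14.5. All animals carried Csf1r-iCre, a Cre recombinase driven in cells of the macrophage lineage, and the ribosomal protein L10a fused to EGFP. The controls, animals WT-280 and WT-281, were HuR +/+, and those labelled knockout (KO-84, KO-94, KO-179) were HuR fl/fl. Hypoxia was 1% O2 for 18 h, and sister plates of the same animals stayed in 20% O2 (normoxia). Total RNA, called input, was taken from one part of each lysate, and RNA on tagged ribosomes (TRAP, translating ribosome affinity purification) from the other part. Values below are in TPM and in the order WT-280 and WT-281, then KO-84, KO-94 and KO-179.

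HuR, the product of Elavl1, is an RNA-binding protein that recognises AU-rich and U-rich stretches, mostly in the 3′ ends of mRNAs, and is known for stabilising many short-lived transcripts. Vegfa, Tnf, Ptgs2 and Hif1a are among its textbook targets in macrophages and other cells. Proteins of the ZFP36 family bind similar elements and direct the same kind of mRNA to decay.

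Elavl1 (chromosome 8, 4284781 to 4325140, GRCm38.p6) was not lower in the knockout-labelled hypoxia libraries. Its levels were 20.8 and 2.07 TPM in WT-280 and WT-281, against 29.2, 18.3 and 1.69 TPM. The groups overlapped, and the lowest library, KO-179, lay beside a control at nearly the same level. The log2 difference was 0.51 ± 0.99 (SE; limma adjusted p = 0.932), and it was −0.91 without WT-281 and −0.18 without KO-84. The floxed exons are not named in the labels and the value pools every exon of the gene, so it checks the deletion only in part. The libraries are called knockout-labelled for that reason.

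Of the 5 libraries, WT-280 and KO-94 stood apart. At 1 TPM or more, fewer genes were counted in WT-280 than in any other library of the comparison (10364, against 11627 in WT-281 and 11749 to 12402 in the knockout-labelled libraries). KO-94 had the most such genes and the smallest share of its TPM in its 50 most abundant genes (32.3%, against 39.9% to 44.6% in the other libraries). The Pearson correlation across genes, which are not independent replicates, ranged from 0.805 for WT-280 with KO-94 to 0.939 for KO-84 with KO-179. The median gene lay 0.36 log2 units higher in the knockout-labelled libraries as deposited. That shift was −0.01 after quantile normalization, so medians of gene lists are given below relative to the median gene.

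A single gene, 0.00791% of those tested, passed the threshold of an adjusted p under 0.05. It was Slc39a7 (chromosome 17, 34028266 to 34031690, GRCm38.p6), which encodes a zinc transporter of the early secretory pathway. Slc39a7 was listed at 0 in both controls and measured 30.8, 57.5 and 36.7 TPM in the knockout-labelled libraries (limma adjusted p = 0.00762). The gene was not silent in the control animals. In normoxia input, Slc39a7 measured 13.3 and 41.2 TPM in the controls, against 0, 50.1 and 40.8 TPM in the knockout-labelled libraries, and in hypoxia TRAP it measured 20.2 and 0 against 20.9, 13.4 and 26.6 TPM. Each library of the main comparison listed at 0 between 1 and 5 genes whose median in the other libraries was at least 20 TPM. Whether a listed 0 is a low level or a failed estimate was not tested. The call of Slc39a7 was lost after quantile normalization (limma adjusted p = 0.0519), without the filter on low values (0.821), with a pseudocount of 5 (0.106), with all 10 input libraries in the fit (0.685) and without KO-94 (1). It held with each other library left out (0.000624 to 0.00337). The number of genes passing was 5 without WT-280, 24 without WT-281, 13 without KO-84, 15 without KO-179 and 0 without KO-94.

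The second smallest limma adjusted p over all genes was 0.16, and 859 genes (6.79%) had an unadjusted p under 0.05, of which 751 were higher and 108 lower in the knockout-labelled libraries. As a description of the remaining genes, a gene is called non-overlapping where all 3 knockout-labelled libraries lay on the same side of both controls. This held for 2362 genes on the higher side (18.7%) and 582 on the lower side (4.6%) as deposited, and for 11.8% and 10.9% after quantile normalization, which removes the shift of the median gene. The replicates come from separate animals, but 2 controls leave the spread of that group poorly known. Of the 103 tested genes named here, 66 had a log2 difference that moved by over 1.5 times, or turned sign, with 1 library left out.

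The 12 highest and 12 lowest genes were taken only among those with an unadjusted p under 0.05 and non-overlapping groups. Their separation in these libraries is therefore a condition of the choice and not a finding. The 11 genes that followed Slc39a7 among the 12 highest ranged widely in level and function. Next came Fcrls, an Fc receptor-like scavenger receptor gene known as a marker of microglia, at 0 and 0.599 TPM in the controls against 10.3, 219.9 and 20.1 TPM. Its log2 difference was 4.89 ± 0.986 (limma adjusted p = 0.196), and KO-94 alone held most of its signal. Sirpa, the inhibitory receptor for the "do not eat me" signal CD47, measured 17.1 and 29.0 TPM against 164, 1246 and 51.9 TPM. Its log2 difference was 3.25 ± 0.833 (limma adjusted p = 0.48). In normoxia, Sirpa measured 260.1 and 201 TPM in the same control animals and 252, 1258 and 49.1 TPM in the knockout-labelled ones, where the groups overlapped. Sirpa was thus lower in hypoxia than in normoxia in both control animals, and nearly equal in KO-94 and KO-179.

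Ctnnd1, encoding the cadherin-binding protein p120 catenin, was also lower in hypoxia than in normoxia in both control animals. It measured 0.588 and 0.0454 TPM in hypoxic controls against 9.26, 19.1 and 22.8 TPM, with a log2 difference of 3.72 ± 0.811 (limma adjusted p = 0.286). In normoxia, Ctnnd1 measured 14.9 and 16.6 TPM in the controls, against 22.4, 21.7 and 17.5 TPM in the knockout-labelled libraries. Unlike those of Sirpa, these groups did not overlap in normoxia either. The difference of the genotype differences was 3.36 ± 0.816 in a fit that treats the libraries of an animal as independent. It did not pass over all genes there (limma adjusted p = 1) or with differences taken within each animal (limma adjusted p = 0.681).

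Other genes on the higher side had controls that disagreed with each other. Trex1, the cytosolic DNA exonuclease, measured 0 and 55.9 TPM against 84.3, 127 and 132 TPM, and its log2 difference of 3.91 ± 1.00 was 0.99 without WT-280. In normoxia, Trex1 was listed at 0 in WT-281, KO-84 and KO-179. RefSeq places a read-through gene, Atrip-trex1, over Trex1, and reads of the pair may have been split between them. Chmp6, a subunit of the membrane-remodelling complex ESCRT-III, measured 34.6 and 0.45 TPM against 53.4, 102 and 43.8 TPM, and its log2 difference of 3.13 ± 0.906 was 0.82 without WT-281. For these genes the size of the difference came from 1 control.

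Both controls were low for Miip (0 and 0.303 TPM against 10, 24.5 and 16 TPM), for C2cd2l (1.51 and 0.899 TPM against 15.1, 25.0 and 13.6 TPM) and for Arap1, a GTPase-activating protein (2.1 and 9.04 TPM against 33.7, 59.7 and 47.2 TPM). Their log2 differences were 3.88, 3.07 and 3.06, with limma adjusted p-values of 0.196, 0.48 and 0.31. The 3 remaining genes on this side were Ccdc85b (3.36), Pik3ap1 (3.34), which encodes an adaptor of phosphoinositide 3-kinase, and Vill (3.12), a villin-like gene. Pik3ap1 reached 167 TPM in KO-94 and at most 5.25 TPM in every other library, and its log2 difference without KO-94 was 1.67.

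**Figure D1:**
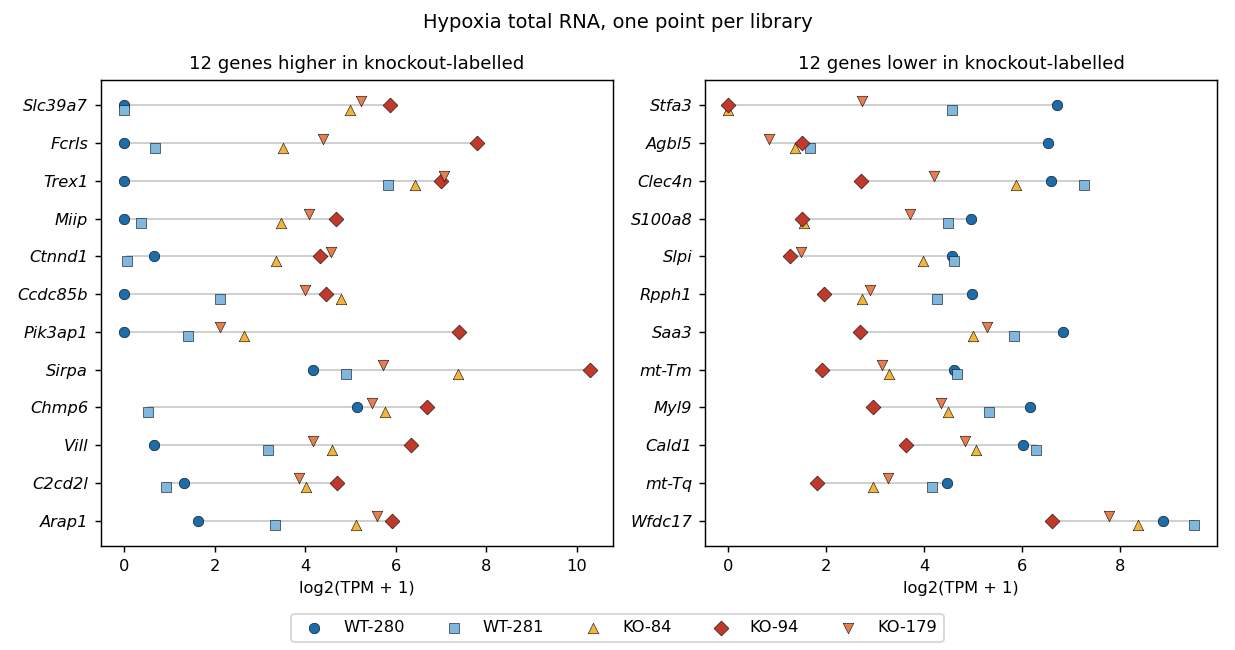
Level of the 12 genes with the highest and the 12 with the lowest log2 difference among genes chosen by the stated rule, as log2(TPM + 1) in each hypoxia input library; each point is 1 library and the grey line spans the 5 values. Blue points are the 2 controls and warm points the 3 knockout-labelled libraries; KO-94 is the extreme library for Sirpa (1246 TPM) and Clec4n (5.54 TPM).

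On the lower side, none of the 12 lowest genes passed. Stfa3, a stefin that inhibits cysteine proteases, measured 104 and 22.7 TPM in the controls against 0, 0 and 5.61 TPM. Its log2 difference was −4.73 ± 0.947 (limma adjusted p = 0.196), and in normoxia it was above 0 only in WT-280, at 8.55 TPM. Clec4n, encoding the C-type lectin Dectin-2 that recognises fungal mannans, measured 95.5 and 153 TPM against 58.1, 5.54 and 17.3 TPM. Clec4n had a log2 difference of −2.67 ± 0.726 (limma adjusted p = 0.604), and the same animals gave −2.14 in normoxia input and −2.94 in hypoxia TRAP.

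S100a8, a subunit of the alarmin calprotectin, measured 29.9 and 21.3 TPM against 1.92, 1.84 and 12.1 TPM. Slpi, a secreted inhibitor of neutrophil elastase, measured 22.7 and 23.5 TPM against 14.7, 1.4 and 1.8 TPM. Wfdc17, a WAP-domain protein gene expressed in macrophages, measured 470.1 and 730.4 TPM against 327, 96.3 and 218 TPM. The log2 differences were −2.46 ± 0.832, −2.35 ± 0.866 and −1.62 ± 0.548 in that order (limma adjusted p = 0.706 for each). Non-overlapping groups were a condition for choosing these genes. S100a8 also marks neutrophils. Of 12 neutrophil markers, 3 were tested. The summed level of all 12 was 48.7 and 34.9 TPM in the controls, against 13.5, 45.6 and 27.3 TPM in the knockout-labelled libraries, which overlapped. S100a9, a list member below the filter that was chosen after its values were seen, measured 4.71 TPM in KO-179 and 0 in the other libraries.

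The short RNAs Rpph1, the RNA component of RNase P, and mt-Tm and mt-Tq, mitochondrial transfer RNAs, were also among the 12 lowest. Rpph1 measured 30.5 and 18.3 TPM against 5.66, 2.86 and 6.39 TPM (log2 difference −2.10 ± 0.758, limma adjusted p = 0.706). mt-Tm measured 23.5 and 24.3 TPM against 8.76, 2.75 and 7.85 TPM. These RNAs are not captured through a regular poly(A) tail, and the libraries were enriched for poly(A). Whether the share of such RNA differed between preparations was not tested. Agbl5, a tubulin deglutamylase gene, completed the side with 91.9 and 2.19 TPM against 1.56, 1.85 and 0.769 TPM, and its log2 difference of −2.88 was −0.44 without WT-280. In hypoxia TRAP the Agbl5 difference had the opposite sign (3.16 ± 1.35), at 1.67 and 0.775 TPM against 95.0, 43.7 and 0.718 TPM. RefSeq places Ost4 and Gm35795 over Agbl5.

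The textbook HuR targets did not share a direction. Of 29 genes on that list, 28 were tested, and their median was −0.09 relative to the median gene (0.11 after quantile normalization). Non-overlapping values were found for 4 on the higher side (background 18.7%) and for none on the lower side (background 4.6%). At an unadjusted p under 0.05 there were 3 higher and 2 lower genes, against 5.94% and 0.854% of all genes, and no list member passed the adjusted threshold.

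Among targets tied to hypoxia, Vegfa, the angiogenic growth factor, measured 3.19 and 14.9 TPM in the controls against 34.4, 52 and 22 TPM. Every knockout-labelled library lay above both controls, and the log2 difference was 2.11 ± 0.717 (limma adjusted p = 0.706; 1.15 without WT-280). In normoxia, the same animals gave 33.4 and 60.6 TPM against 56.1, 52.7 and 10.8 TPM, and in hypoxia TRAP they gave 28.3 and 70.4 TPM against 24.1, 31.6 and 27 TPM. The low control values of total Vegfa were thus not seen on the tagged ribosomes of the same lysates, although input and TRAP were scaled in separate tables. The genotype difference in hypoxia minus that in normoxia was 2.58 ± 1.09, and TRAP minus input was −2.80 ± 0.948. Neither passed in fits that treat the libraries of an animal as independent (limma adjusted p = 1 for each). With differences taken within each animal, neither passed either (limma adjusted p = 0.733 and 0.667). Hif1a, the oxygen-regulated transcription factor subunit, measured 16.2 and 29.2 TPM against 13.1, 45.6 and 17.6 TPM (log2 difference 0.01 ± 0.681, limma adjusted p = 0.998). Its groups overlapped, as did those of the glucose transporter gene Slc2a1 (0.36 ± 0.566) and of Hmox1, encoding the haem-degrading enzyme (0.91 ± 0.807).

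Among cytokine and inflammation targets, Mmp9, a secreted gelatinase, measured 5.8 and 5.15 TPM against 18.9, 48.8 and 23.6 TPM. The groups did not overlap (log2 difference 2.17 ± 0.70, limma adjusted p = 0.706), and the difference was 2.50 in normoxia and 1.01 in hypoxia TRAP. Tnf measured 30.7 and 51.6 TPM against 13.3, 26.3 and 36.3 TPM, which overlapped (−0.74 ± 0.632, limma adjusted p = 0.799). Ptgs2, the inducible cyclooxygenase, stayed below 10 TPM in every library (0.05 ± 0.817), and Il10 and Il6 were near or at 0 in most libraries. Il10, an anti-inflammatory cytokine, measured 0.408 and 0 TPM against 4.36, 5.8 and 0.416 TPM, and Il6 measured 7.25 and 0.799 TPM against 1.25, 0 and 0 TPM. Their log2 differences were 1.65 ± 0.755 and −1.55 ± 0.731 (limma adjusted p = 0.723 for each). Tlr4, the endotoxin receptor (1.20 ± 0.698), Tgfb1 (0.87 ± 0.594) and the monocyte chemokine receptor gene Ccr2 (1.23 ± 0.676) had overlapping groups.

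The cell cycle and survival targets had a median of −0.32 relative to the median gene, and −0.01 after quantile normalization. Ptma, encoding prothymosin α, measured 399 and 431 TPM against 458, 529 and 601 TPM, a small non-overlapping difference of 0.34 ± 0.482 (limma adjusted p = 0.895). The log2 differences of the other 14 tested genes lay between −0.54 for Ccna2, a cyclin of S phase, and 1.01 for Sirt1, a protein deacetylase. They were 0.68 for Ccnd1, 0.47 for Mcl1, 0.65 for Bcl2, 0.20 for Ccnb1, 0.34 for Mtdh and 0.04 for Fos. They were −0.39 for Trp53, −0.18 for Myc, −0.11 for Xiap, −0.04 for Cdkn1a, −0.04 for Actb and −0.02 for Dusp1. The groups of these 14 genes overlapped as deposited. Nos2, the list member below the filter, reached 0.444 TPM in WT-280 and was listed at 0 in the other libraries.

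Proteins that bind the same elements were described next. Of 19 tested genes of this list, 3 were non-overlapping on the higher side and 1 on the lower side, close to the background, and the median was 0.07 relative to the median gene. The decay factor genes Zfp36l1 (51.1 and 50.1 TPM against 61.2, 57.0 and 92.3 TPM; log2 difference 0.43 ± 0.541) and Zfp36l2 (0.90 ± 0.681) and the gene of the decay-promoting protein KSRP, Khsrp (1.05 ± 0.829), had limma adjusted p-values of 0.877, 0.771 and 0.785.

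Interferon-stimulated genes lay higher in the knockout-labelled libraries more often than genes in general. Type I and type II interferons switch on these antiviral genes through STAT and IRF transcription factors, which bind an element whose core reads GAAA, any 2 bases, then GAAA again. Of 58 tested genes, 19 were non-overlapping on the higher side (background 18.7%) and none on the lower side; after quantile normalization they were 15 and 3 (background 11.8% and 10.9%). The list median was 0.30 relative to the median gene and 0.41 after quantile normalization, and it stayed between 0.23 and 0.46 with any 1 library left out. Of the 58, 7 had an unadjusted p under 0.05, all on the higher side (background 5.94%), and none passed. The summed level of the list did not follow these counts. It was 8341 and 10242 TPM in the controls against 8127, 6687 and 11200 TPM, so KO-84 and KO-94 lay below both controls.

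Irf7, the master regulator of the interferon response, measured 31.5 and 31.8 TPM in the controls against 68.1, 128 and 96.3 TPM. The controls were nearly equal and all knockout-labelled libraries were above them (log2 difference 1.55 ± 0.546, limma adjusted p = 0.706). In normoxia input the same animals gave 41.9 and 26.2 TPM against 33.1, 89.4 and 74.4 TPM, where KO-84 lay between the controls. Among the antiviral effectors, Oas2, which makes the second messenger that activates RNase L, measured 2.19 and 1.88 TPM against 9.15, 19.4 and 8.02 TPM (2.02 ± 0.80). Oasl2, a related antiviral protein gene, measured 35.5 and 24.8 TPM against 48.0, 99.3 and 70.0 TPM (1.20 ± 0.568). For both, the groups did not overlap as deposited or after quantile normalization (limma adjusted p = 0.708 and 0.723).

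Igtp, an immunity-related GTPase gene, measured 2.19 and 7.52 TPM against 11.1, 30.9 and 17.6 TPM (1.89 ± 0.776). Ifit3, an inhibitor of viral translation and replication, measured 11.7 and 7.16 TPM against 12.8, 38.2 and 41.6 TPM (1.48 ± 0.701), with KO-84 close to the higher control. Bst2, encoding the virus-retaining protein tetherin, measured 34.5 and 155 TPM against 194, 169.9 and 337 TPM (1.59 ± 0.596). The Bst2 difference was 0.52 without WT-280 and −0.21 in normoxia. The groups of Ifit3 and of Bst2 overlapped after quantile normalization. By role, the 6 transcription factor genes all lay above the median gene (list median 0.37 relative to it), the 6 nucleic acid sensor genes were split evenly (0.05), and 33 of 46 antiviral effector genes lay above it (0.34).

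Promoters were looked up for the element named above. It was present on either strand in the 300 bases around the start (250 before, 50 after) of 25 of the 46 tested interferon-stimulated genes with a promoter in the RefSeq table, 54.3%, against 3.99% of all 27025 genes with a promoter there. It was present in 10 of the 16 non-overlapping higher genes (62.5%) and in 15 of the 30 others (50%). The motif thus marked the list as a whole, and a match is a description of letters, not of binding. The promoters of Igtp and of Gbp7, an interferon-induced guanylate-binding protein gene, are printed as examples, with the motif in capitals (for Gbp7 it reads on the opposite strand). Gbp7 was chosen after its values were seen (0.166 and 1.57 TPM against 2.89, 6.89 and 5.25 TPM; log2 difference 1.74 ± 0.778, limma adjusted p = 0.723). Igtp is on the plus strand at chr11:58199306-58199605 and Gbp7 on the plus strand at chr3:142530086-142530385 (RefSeq, GRCm38.p6).
Igtp: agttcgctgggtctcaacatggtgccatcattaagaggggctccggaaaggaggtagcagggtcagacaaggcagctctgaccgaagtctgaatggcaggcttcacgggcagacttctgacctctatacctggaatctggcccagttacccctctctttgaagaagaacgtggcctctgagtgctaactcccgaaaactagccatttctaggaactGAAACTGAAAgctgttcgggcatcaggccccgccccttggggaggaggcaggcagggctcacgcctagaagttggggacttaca
Gbp7: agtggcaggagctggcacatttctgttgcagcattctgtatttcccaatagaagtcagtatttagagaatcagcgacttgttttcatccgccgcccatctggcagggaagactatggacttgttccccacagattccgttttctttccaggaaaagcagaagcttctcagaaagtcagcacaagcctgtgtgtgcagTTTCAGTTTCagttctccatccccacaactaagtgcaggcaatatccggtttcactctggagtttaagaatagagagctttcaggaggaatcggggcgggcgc

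Lysosomal genes lay higher as well, and their hydrolases most often. Lysosomes digest material taken up by macrophages, with acid hydrolases that work in a lumen acidified by a proton pump. Of 76 tested genes, 28 were non-overlapping on the higher side (background 18.7%). On the lower side there was 1, the proton pump subunit gene Atp6v0b (background 4.6%). After quantile normalization they were 23 and 2 (background 11.8% and 10.9%). By role, 18 of 39 hydrolase genes, 6 of 20 membrane protein genes and 4 of 17 proton pump genes were non-overlapping on the higher side. The list median was 0.33 relative to the median gene, and between 0.25 and 0.43 with any 1 library left out.

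Lgmn, encoding the cysteine protease legumain, measured 393 and 386 TPM in the controls against 810.4, 1947 and 793 TPM. The controls were nearly equal, each knockout-labelled library was above both, and the log2 difference was 1.47 ± 0.526 (limma adjusted p = 0.706). Ctsa, encoding the protective protein cathepsin A, measured 262 and 279 TPM against 501, 1421 and 583 TPM (1.46 ± 0.531). For both, KO-94 was highest, and the log2 differences without it were 1.04 and 1.00.

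A pair of less abundant hydrolase genes had larger differences. They were Arsb, a sulfatase of glycosaminoglycan breakdown (5.1 and 13.7 TPM against 21.6, 64.3 and 31.7 TPM; 1.95 ± 0.691), and Pla2g15, a lysosomal phospholipase (4.86 and 11.4 TPM against 20.9, 78.7 and 22.8 TPM; 2.02 ± 0.721). Atp6ap1, an accessory subunit gene of the proton pump, measured 31.4 and 118 TPM against 147, 204 and 136 TPM (1.37 ± 0.573), and 0.44 without WT-280. All 5 of these lysosomal genes had a limma adjusted p of 0.706 or 0.723. The palindrome CACGTG is the core of the element bound by TFEB and other factors of its class. It was present in any promoter of 18 of 60 lysosomal genes with a promoter in the table, 30.0%. Of all 27025 genes with a promoter there, 8.09% had it, and genes with more promoters have more places for a match. It was present in 9 of the 23 non-overlapping higher genes (39.1%) and in 9 of the 37 others (24.3%). The promoters of Lgmn and Ctsa, which had nearly equal controls, are printed with it in capitals. Each gene has 2 promoters in the table, of which 1 is shown, Lgmn on the minus strand at chr12:102439043-102439342 and Ctsa on the plus strand at chr2:164833523-164833822 (RefSeq, GRCm38.p6). Ctsa overlaps Neurl2 and Pltp in the annotation.
Lgmn: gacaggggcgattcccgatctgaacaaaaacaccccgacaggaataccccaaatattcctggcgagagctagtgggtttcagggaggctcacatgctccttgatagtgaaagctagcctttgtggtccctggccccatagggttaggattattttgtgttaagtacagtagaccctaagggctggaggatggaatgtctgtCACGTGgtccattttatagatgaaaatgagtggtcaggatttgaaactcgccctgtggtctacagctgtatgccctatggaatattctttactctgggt
Ctsa: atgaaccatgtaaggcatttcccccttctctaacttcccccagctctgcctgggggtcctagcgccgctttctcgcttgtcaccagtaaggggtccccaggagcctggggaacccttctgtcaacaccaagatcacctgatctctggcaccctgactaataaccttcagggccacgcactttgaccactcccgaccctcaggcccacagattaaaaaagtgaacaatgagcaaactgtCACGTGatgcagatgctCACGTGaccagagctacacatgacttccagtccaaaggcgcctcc

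Genes of resident and alternatively activated macrophages had the highest median of the lists with at least 8 tested genes, 0.72 relative to the median gene (0.51 to 1.06 with any 1 library left out). Such macrophages clear dying cells and serum proteins and express complement C1q. Of 16 tested genes, 7 were non-overlapping on the higher side as deposited (background 18.7%) and 7 after quantile normalization (background 11.8%). On the lower side there was 1 (background 4.6%), the scavenger receptor gene Marco. C1qa measured 69.9 and 36.6 TPM in the controls against 110.2, 377 and 501 TPM. All 3 knockout-labelled libraries were higher, KO-84 least so, and the log2 difference was 2.42 ± 0.604 (limma adjusted p = 0.48; 0.00896 without KO-84, and 0.204 to 1 under the other alternatives). C1qb (934 and 406 TPM against 931, 2709 and 2064 TPM; 1.49 ± 0.568) and C1qc (695 and 293 TPM against 720.1, 2015 and 1761 TPM; 1.60 ± 0.565) were also highest in KO-94 and KO-179, with KO-84 at the level of WT-280, and without WT-281 their differences were 0.89 and 0.97. KO-94 and KO-179 thus held the most of all 3 C1q genes, and the log2 difference was 3.14 for C1qa, 1.58 for C1qb and 1.55 for C1qc in hypoxia TRAP.

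Gas6, a bridging ligand between dying cells and the MERTK receptor, measured 1.46 and 16.4 TPM against 20.5, 74.9 and 57.2 TPM (2.80 ± 0.795, limma adjusted p = 0.604), and its difference was 1.39 without WT-280 and 4.21 without WT-281. Mertk itself, the receptor, was on the macrophage identity list and measured 2.32 and 3.78 TPM against 6.42, 18.2 and 9.07 TPM (1.50 ± 0.803, limma adjusted p = 0.723). The groups of ligand and receptor genes did not overlap. Folr2, encoding folate receptor β, measured 86.3 and 72.2 TPM against 137, 268 and 171 TPM (1.21 ± 0.515). Selenop, a secreted selenium carrier, measured 596 and 501 TPM against 829.5, 3365 and 867 TPM (1.30 ± 0.586). Both had a limma adjusted p of 0.723, and in normoxia their log2 differences were 1.70 and 1.36.

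The macrophage identity list checks the label of the cells. Its 22 genes were all tested and their summed level was 30853 and 25941 TPM in the controls, against 23978, 27548 and 28537 TPM in the knockout-labelled libraries. Lyz2, lysozyme, measured 11120 and 8527 TPM against 6432, 8426 and 6064 TPM, and Cd68 measured 2632 and 1857 TPM against 2148, 2909 and 3275 TPM. Lyz2 was the list's single non-overlapping gene on the lower side, and 5 were non-overlapping on the higher side, both near the background of 4.6% and 18.7%. After quantile normalization 5 were again non-overlapping on the higher side, where the background was 11.8%. The list median was 0.33 relative to the median gene, 0.52 after quantile normalization and 0.04 without WT-281. Among the genes on the higher side, Adgre1, which encodes the macrophage antigen F4/80, measured 127 and 280.3 TPM against 314, 793 and 391 TPM (1.28 ± 0.541, limma adjusted p = 0.723). Csf1r, the CSF1 receptor whose promoter drives the Cre, measured 52.6 and 90.7 TPM against 87.4, 444 and 156 TPM, which overlapped (1.39 ± 0.608). Lyz2 and Cd68 were chosen after their values were seen. Of 13 tested complement and Fc receptor genes, which share the C1q genes with the resident list, 4 were non-overlapping on the higher side (background 18.7%) and none on the lower side, with a median of 0.37 relative to the median gene.

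**Figure D2:**
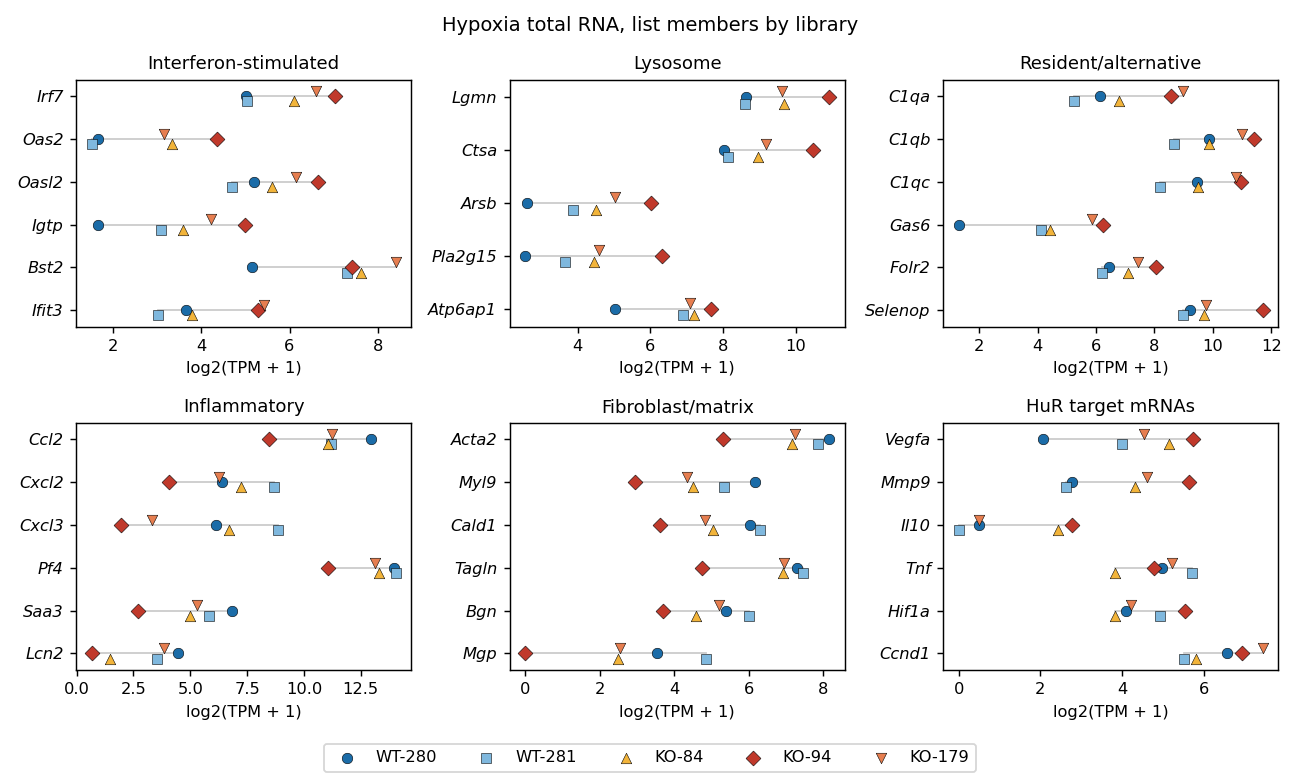
Level of members of 6 gene lists, as log2(TPM + 1) in each hypoxia input library, with 1 point per library and a grey line over the 5 values. Blue points are the 2 controls and warm points the 3 knockout-labelled libraries; for Lgmn the controls sit at 393 and 386 TPM and every knockout-labelled library lies above them, while for Acta2 every knockout-labelled library lies below both controls.

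Inflammatory cytokine and chemokine genes had a median of −0.88 relative to the median gene, the same as that of fibroblast genes below (−0.69 after quantile normalization, and −1.04 to −0.56 with any 1 library left out). Of 38 tested genes, 8 were lower and 1 higher at an unadjusted p under 0.05 (background 0.854% and 5.94%), none passed, and 3 were non-overlapping on the lower side (background 4.6%). By role, the median was −1.32 for 8 CXC chemokine genes, −1.10 for 8 CC chemokine genes, −0.84 for 8 cytokine genes and −0.52 for 14 enzymes and receptors. Most groups overlapped, and controls often differed from each other.

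Ccl2, the main monocyte chemoattractant and a known HuR target, measured 7863 and 2359 TPM in the controls against 2112, 353 and 2418 TPM. WT-281 lay within the knockout-labelled values, and the log2 difference of −1.82 ± 0.715 (limma adjusted p = 0.708) was −0.95 without WT-280 and −0.93 without KO-94. Cxcl2 and Cxcl3, neutrophil-attracting chemokines, were instead highest in WT-281. Cxcl2 measured 84 and 409 TPM against 151, 15.5 and 76.1 TPM (−1.69 ± 0.759; −0.56 without WT-281 and −0.79 without KO-94), and Cxcl3 measured 68.2 and 462 TPM against 103, 2.92 and 8.97 TPM (−3.49 ± 0.966, limma adjusted p = 0.604). Without KO-84, Cxcl3 had a limma adjusted p of 9.28e-06, and without KO-179 it was 0.0243; the other alternatives gave 0.0871 to 1. Lcn2, an iron-sequestering defence protein gene, measured 20.8 and 10.5 TPM against 1.79, 0.575 and 13.5 TPM (−1.99 ± 0.919).

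The non-overlapping genes of the list were Pf4, Saa3 and Sod2. Pf4, platelet factor 4, which macrophages also express, measured 16095 and 16874 TPM against 10192, 2117 and 8806 TPM (−1.52 ± 0.69, limma adjusted p = 0.723). At this level Pf4 was among the most abundant mRNAs of the controls. Saa3, an acute phase apolipoprotein gene, measured 113 and 56.3 TPM against 30.9, 5.46 and 38.1 TPM (−2.01 ± 0.715, limma adjusted p = 0.706). Sod2, the mitochondrial superoxide dismutase, chosen after its values were seen, differed little (−0.25 ± 0.563).

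Among the lists with at least 8 tested genes, that of fibroblast and extracellular matrix genes had the largest share of non-overlapping genes on the lower side. Of 33 tested genes, 10 were non-overlapping there (background 4.6%) and none on the higher side; after quantile normalization 11 were (background 10.9%). The list median was −0.88 relative to the median gene, −0.93 after quantile normalization and −0.39 without KO-94. The difference was in contractile and receptor genes (7 of 14; median −1.34) more than in collagens and matrix genes (3 of 19; median −0.83).

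Acta2, smooth-muscle actin, measured 286 and 230.4 TPM in the controls against 141, 38.9 and 149 TPM. Every knockout-labelled library lay below both controls (−1.44 ± 0.581, limma adjusted p = 0.72), and the difference was −1.55 in normoxia and −2.76 in hypoxia TRAP. Myl9, a myosin light chain of smooth muscle, measured 70.9 and 39.2 TPM against 21.5, 6.72 and 19.3 TPM (−1.82 ± 0.666). Cald1, the actin-binding protein caldesmon, measured 64.1 and 77.2 TPM against 32.1, 11.4 and 27.5 TPM (−1.65 ± 0.614). Tagln, encoding transgelin, measured 157 and 176 TPM against 119.8, 26.1 and 123 TPM (−1.17 ± 0.617), and Mgp, matrix Gla protein, measured 10.7 and 28.1 TPM against 4.66, 0 and 4.8 TPM (−2.53 ± 0.904). KO-94 was the lowest library in each, and the other knockout-labelled libraries resembled each other. Col1a1, the collagen gene most typical of fibroblasts, measured 22.4 and 46.5 TPM against 22.3, 9.45 and 43.3 TPM, which overlapped (−0.59 ± 0.689; chosen after its values were seen).

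The summed level of all fibroblast list genes was 4533 and 5361 TPM in the controls, against 4408, 2327 and 5670 TPM in the knockout-labelled libraries, so the sums overlapped and KO-94 held the least. In bulk RNA, fewer cells of a type and less RNA per cell cannot be told apart. Summed levels of 13 hepatocyte markers were 29.2 and 60.6 TPM against 63.9, 429 and 80.3 TPM, most of it from the transferrin gene Trf (417 TPM in KO-94), which macrophages can express. Summed levels of the 14 erythroid markers found among the gene symbols were 1.8 to 8.54 TPM. The part of other cell types in the differences above was not tested.

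Nuclear genes of the respiratory chain lay below the median gene in 63 of 76 cases, with a list median of −0.80 relative to it, −0.45 after quantile normalization, −0.41 without WT-280 and −0.34 without KO-94. Of them, 9 were non-overlapping on the lower side (background 4.6%) and 6 on the higher side (background 18.7%). After quantile normalization they were 14 and 6 (background 10.9% and 11.8%). Complex I genes were below the median gene in 34 of 37 cases. Uqcrq, a small subunit gene of complex III, measured 1062 and 1167 TPM against 701, 225 and 725 TPM (−1.20 ± 0.553, limma adjusted p = 0.723), and Ndufb6, of complex I, measured 798 and 564 TPM against 371, 191 and 484 TPM (−1.05 ± 0.521). Sdha, the catalytic subunit gene of complex II, went the other way, at 32.0 and 32.6 TPM against 41.9, 129 and 40.2 TPM (0.88 ± 0.609; chosen after its values were seen).

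This list followed single libraries. A list score per library was taken as the median over list genes of the deviation from the gene's mean over the 5 libraries, minus the same over all tested genes. For the respiratory chain it was 0.87 in WT-280, −1.35 in KO-94 and between 0.05 and 0.15 in the other 3 libraries, so WT-281 lay beside KO-84 and KO-179. For fibroblast genes the scores were 0.52 and 0.63 in the controls and 0.08, −1.57 and 0.22 in the knockout-labelled libraries, which did not overlap. For inflammatory genes they were 0.32 and 0.33 against 0.03, −1.07 and 0.00, and for lysosomal genes −0.14 and −0.17 against 0.05, 0.33 and −0.01. In these 3 lists the scores of the groups did not overlap. For interferon-stimulated genes, −0.05 and −0.29 in the controls overlapped with −0.10, 0.02 and 0.35.

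**Figure D3:**
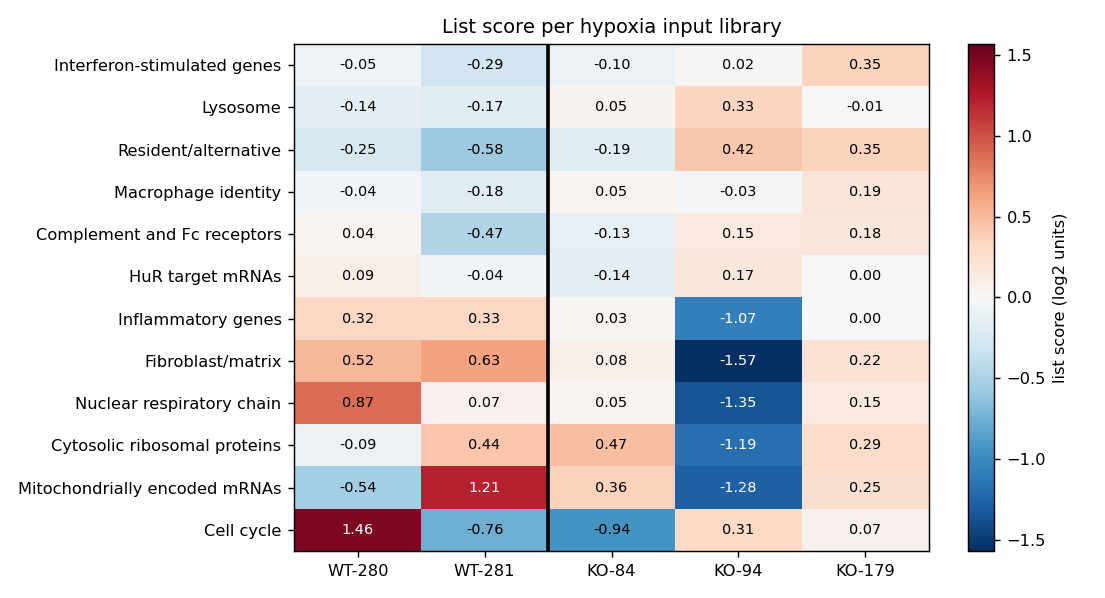
Score of 12 gene lists in each hypoxia input library in log2 units, the median deviation of the list's genes from their mean over the 5 libraries minus that of all tested genes; red is above 0 and blue below, and the black line separates the 2 controls from the 3 knockout-labelled libraries. KO-94 has the lowest score for fibroblast (−1.57), nuclear respiratory chain (−1.35) and inflammatory genes (−1.07), and WT-280 the highest for the cell cycle (1.46).

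Hypoxia-responsive genes did not share a direction. Of 29 tested HIF targets, 6 were non-overlapping on the higher side (background 18.7%) and 3 on the lower side (background 4.6%). The median was −0.14 relative to the median gene, −0.54 without WT-280 and 0.13 without WT-281. By role, it was 0.18 for 13 genes of oxygen sensing and signalling (−0.54 without WT-280). For 16 genes of mitophagy, pH and matrix it was −0.64, and −0.79 to −0.255 with any 1 library left out. Jmjd6, an oxygen-dependent hydroxylase gene, measured 2.16 and 9.46 TPM against 26.5, 46.6 and 16.7 TPM (2.31 ± 0.751), and Hilpda, a lipid droplet protein gene induced by hypoxia, measured 452 and 277 TPM against 197, 111 and 116 TPM (−1.37 ± 0.511; limma adjusted p = 0.706 for both). Both were non-overlapping, in opposite directions. Hilpda differed alike in normoxia (−1.05) and in hypoxia TRAP (−1.31), whereas Jmjd6 gave 0.34 and 0.60 there. Of 25 glycolysis genes, 4 were non-overlapping on the higher side (background 18.7%) and none on the lower side. Their median of 0.12 was 0.49 after quantile normalization, 0.35 without WT-280 and −0.073 without KO-94, so it has no stable direction. Pgam1, phosphoglycerate mutase, measured 219.9 and 196 TPM against 294, 481 and 269 TPM (0.70 ± 0.497, limma adjusted p = 0.758).

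The 42 cell cycle genes had 1 non-overlapping member, on the higher side (background 18.7%). Their median was −0.37 relative to the median gene, 0.52 without WT-280 and −1.63 without WT-281. The controls differed more from each other than the genotypes did. Ube2c, a mitotic ubiquitin-conjugating enzyme gene, measured 358 and 91.5 TPM in the controls against 62.7, 121 and 134 TPM (−0.84 ± 0.591, limma adjusted p = 0.757; 0.14 without WT-280). Cytosolic ribosomal protein genes (77 tested, median −0.25; 0.18 after quantile normalization) and mitochondrially encoded mRNAs (13 tested, −0.25; −0.03) lost or changed direction with the scaling. Of the ribosomal protein genes, 10 were non-overlapping on the higher side and none on the lower side, below the background of 18.7%. Rpsa, a small-subunit protein gene, measured 262 and 478 TPM against 612, 669 and 552 TPM (0.78 ± 0.495, limma adjusted p = 0.735). Ribosomal protein genes have many near-identical processed copies, and reads may be split among them.

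Among antigen presentation genes, the nonclassical class I gene H2-T23 stood out with 26.1 and 14.3 TPM in the controls against 109, 113 and 52.3 TPM (2.10 ± 0.586, limma adjusted p = 0.604). Its groups did not overlap, but reads may be shared with related class I genes. The class I list had 2 of 16 tested genes non-overlapping on the higher side, and the class II list 2 of 8 (background 18.7%). Of 24 genes of cholesterol and lipid handling, 4 were non-overlapping on the higher side (background 18.7%). Apoe, the lipid-carrying apolipoprotein, measured 579 and 178 TPM against 567, 4438 and 466 TPM. The latter overlapped, with KO-94 far above the other 4 libraries (1.71 ± 0.739, limma adjusted p = 0.723; 0.68 without KO-94). The lists of ATF4 targets (4 of 24 genes non-overlapping on the higher side), endoplasmic reticulum chaperones (3 of 23), proteasome subunits (2 of 31) and immediate early genes (1 of 22) were at or below the background. The NRF2 and metal response list had 3 of 23 genes non-overlapping on the lower side (background 4.6%), and 5 after quantile normalization (background 10.9%). Among the 3 was Nqo1, a quinone reductase gene (20.3 and 9.89 TPM against 4.84, 3.09 and 4.75 TPM; −1.56 ± 0.785). However, the list median of −0.27 was 0.16 without WT-281.

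**Figure D4:**
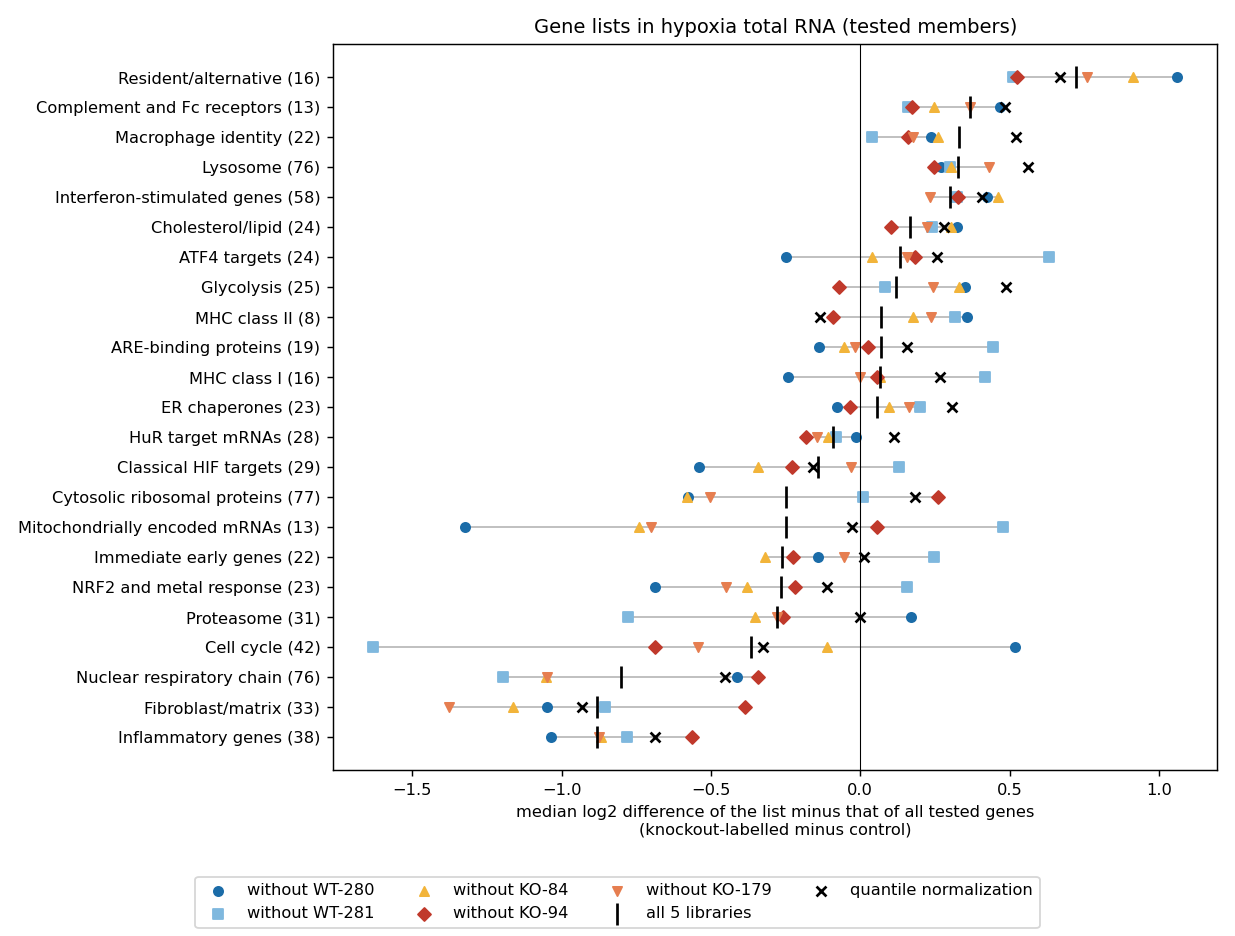
Median log2 difference of each gene list (knockout-labelled minus control, hypoxia input) minus the median of all tested genes, for the lists with at least 8 tested genes; black bars show all 5 libraries, crosses quantile normalization, and coloured points the value with 1 library left out. The resident, lysosomal and interferon-stimulated lists stay right of 0 and the fibroblast, inflammatory and nuclear respiratory lists left of 0 in every setting drawn, while the cell cycle list spans −1.63 to 0.52.

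Whether these differences belong to hypoxia was asked by setting the same animals side by side in normoxia and by testing the difference. For the interaction of genotype and oxygen in the 10 input libraries, 0 of 13901 genes passed in limma (1.88%, or 261, had an unadjusted p under 0.05), and 0 passed with the animal as replicate block, where 891 had an unadjusted p under 0.05. Within normoxia input 0 of 12864 genes passed in limma (2.09%, or 269, had an unadjusted p under 0.05), and non-overlapping genes made up 9.93% on the higher and 5.61% on the lower side. There, 15 of 58 interferon-stimulated, 17 of 76 lysosomal and 5 of 15 resident genes were non-overlapping on the higher side, and 18 of 33 fibroblast and 9 of 37 inflammatory genes on the lower side. Relative list medians in normoxia were 0.45, 0.37, 1.09, −1.14 and −0.79 in that order. The lists named here had the same sign in both conditions, so no list is called particular to hypoxia. The 2 conditions come from the same 5 animals and are not independent of each other.

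RNA on the tagged ribosomes of the same hypoxic lysates had 0 of 12312 genes past the threshold in limma (4.14%, or 510, had an unadjusted p under 0.05), with 9.64% non-overlapping on the higher and 7.24% on the lower side. Relative medians were 0.47 for interferon-stimulated, 0.35 for lysosomal, 1.51 for resident, −1.48 for fibroblast and −1.07 for inflammatory genes. On the higher side, 7 of 58 interferon-stimulated, 11 of 75 lysosomal and 6 of 12 resident genes were non-overlapping in TRAP. On the lower side, 6 of 26 fibroblast and 6 of 37 inflammatory genes were. The interferon-stimulated share was thus near that of all genes. Of the cytosolic ribosomal protein genes, 20 of 77 were non-overlapping on the higher side in TRAP, with a relative median of 0.53. In input that median was −0.25 as deposited, but 0.18 after quantile normalization, 0.26 without KO-94 and 0.0078 without WT-281, so no difference in sign is called. The test of the difference between TRAP and input passed for 0 of 13769 genes in limma (2.52%, or 347, had an unadjusted p under 0.05). With each animal's own TRAP minus input difference (animal as replicate block), 1009 genes had an unadjusted p under 0.05 and 1 passed. It was Gm45717, chosen after its values were seen, with a log2 genotype difference of 6.55 in TRAP and −3.44 in input (limma adjusted p = 4.31e-05 with the block and 1 without it). In input, Gm45717 measured 985 and 785 TPM in the controls against 624, 567 and 0.489 TPM, so a single library, KO-179, was low. Input and TRAP values were scaled in separate tables.

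**Figure D5:**
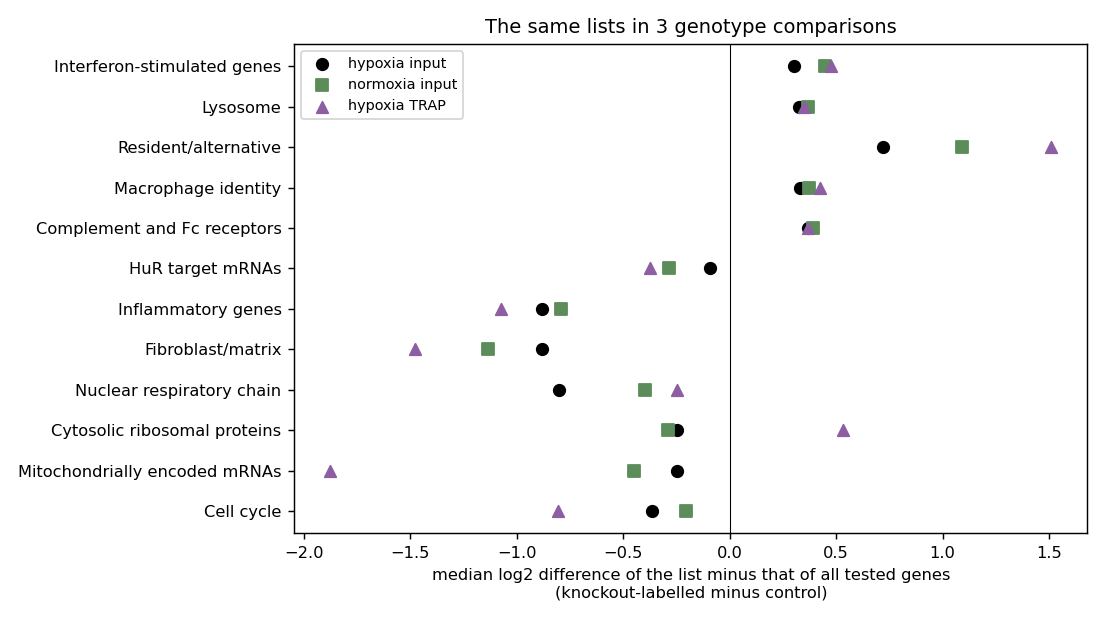
Median log2 difference of 12 gene lists relative to all tested genes (knockout-labelled minus control) in hypoxia input, normoxia input and hypoxia TRAP, which come from the same 5 animals. The resident list lies at 0.72, 1.09 and 1.51 and the fibroblast list at −0.88, −1.14 and −1.48, in that order.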

How the data were processed

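The deposited input and TRAP tables give TPM per gene and library, read as such because each library sums to 1000000; how the authors derived TPM from the alignments is not stated in the labels. Per the submitters' processing notes, HISAT, DESeq2 and the GRCm38 genome were used, with no version or role given. Libraries were poly(A)-enriched, per the labels' protocols. Each held 10 columns of per-animal ratios, which were not used; 52403 of 52636 gene IDs matched the gene table, and 26 of 27 symbols turned into dates were restored from their ID.

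Here, log2(TPM + 1) of the 5 libraries was fitted with limma 3.58.1 in R 4.3.3 (empirical Bayes variances with a mean-variance trend), for genes with at least 1 TPM in 2 or more libraries, two-sided, with Benjamini-Hochberg adjustment over 12646 genes and a threshold of 0.05. A log2 difference on this scale understates that of low genes. Interactions with oxygen and with fraction used 10 libraries each. Summaries used pandas 2.3.3 and numpy 2.4.6 under Python 3.11.15, plots used matplotlib 3.10.9, and the fit was tested on simulated data. Promoter sequences and gene positions are from RefSeq (GRCm38.p6).

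The members and all 29 gene lists were chosen with earlier results of these data known. Named genes are Elavl1, the 12 highest and 12 lowest log2 differences (mean of at least 10 TPM, unadjusted p under 0.05, groups not overlapping as deposited and after quantile normalization, clone-like names left out), members of lists with the smallest p (at most 6 per list, mean of at least 5 TPM) and all HuR targets; others are marked as chosen after their values were seen, and 1 gene that the rule names is not reported here. Lists were described by counts and medians, without a set test. Control and knockout-labelled libraries share no animal, but hypoxia, normoxia, input and TRAP libraries of an animal do (correlation within animals 0.559 over the 10 input libraries), so the animal was a block in alternatives. Other alternatives were quantile normalization, centring on the library median, no filter or one at 5 TPM, pseudocounts of 0.1 and 5, no trend, and leaving out each animal, where a lone control is assumed to vary like the other group. The labels give no batch.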

Additional observations from a re-analysis of the deposited data

Results flagged for a closer look

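Rpsa, encoding a protein of the small ribosomal subunit, had non-overlapping groups in opposite directions in the 2 oxygen conditions. In hypoxia input it measured 262 and 478 TPM in the controls, against 612, 669 and 552 TPM in the knockout-labelled libraries. In normoxia input it measured 555 and 607 TPM against 508, 552 and 525 TPM. The genotype difference in hypoxia minus that in normoxia was 0.92 ± 0.54 on the log2 scale. Limma did not call it (adjusted p = 1, or 0.733 with differences taken within each animal). The gene table also lists Rpsa pseudogenes, so its reads may be shared with near-identical copies and its level is uncertain.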

How the results depend on the processing

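Within hypoxia input no paired analysis was possible because control and knockout-labelled libraries share no animal number; the interactions were paired by animal. With all 10 input libraries in the fit 0 genes passed, and 0 with the animal as a replicate block. The replicate block left the interaction with oxygen at 0 genes (891 at an unadjusted p under 0.05) and gave 1 gene for that with fraction (Gm45717); leaving out KO-179 gave 1 there and leaving out any other animal gave 0. In the main comparison, 0 genes passed with quantile normalization, no filter or a pseudocount of 5, and 1 with centring, a filter at 5 TPM, a pseudocount of 0.1 or no trend. Leaving out 1 animal gave 5 genes without WT-280, 24 without WT-281, 13 without KO-84, 0 without KO-94 and 15 without KO-179. Non-overlapping genes numbered 1492 higher and 1384 lower with quantile normalization and 1432 and 1387 with centring. They numbered 2469 to 5599 and 727 to 2289 with 1 animal left out, where fewer libraries have to be separated.

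Some log2 differences turned sign. With 1 animal left out the ranges were −0.91 to 1.92 for Elavl1, −0.50 to 0.42 for Hif1a, −1.03 to 1.12 for Ptgs2, −0.36 to 2.18 for Hmox1, −0.45 to 2.54 for Khsrp, −1.39 to 1.79 for Ccnb1, −0.028 to 1.33 for Bcl2, −0.61 to 1.28 for Mtdh, −0.48 to 0.49 for Fos, −0.10 to 0.65 for Slc2a1, −0.27 to 0.29 for Actb, −0.28 to 0.25 for Cdkn1a, −0.94 to 0.89 for Dusp1, −0.81 to 0.45 for Myc, −0.76 to 0.54 for Xiap and −1.82 to 0.14 for Ube2c, and −0.69 to 0.16 for the median of the NRF2 list. Quantile normalization gave −0.019 for Ccnb1, −0.36 for Hif1a and −0.51 for Ptgs2. Centring gave −0.22, −0.41 and −0.38 for these and −0.39 for Fos, −0.09 for Mtdh, −0.083 for Ptma, −0.068 for Slc2a1 and −0.12 for Cd68. A pseudocount of 5 gave −0.059 for Ptgs2. The causes were not tested. Of the other gene values computed, 1360 kept their direction and side of the threshold, 22 gained and 6 lost a call. TPM hold no read numbers, so what depth limits cannot be stated.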
